A study of Macaca fascicularis with 20 samples.

Results

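KLRD1, KLRB1 and KLRG1, which encode 3 killer cell lectin-like receptors, were followed across 4 natural killer (NK) cell subsets and B cells from cynomolgus macaque (Macaca fascicularis) spleen. Their probes were those whose transcript accession, without its version, stands for one of these symbols in the RefSeq gene table of the species. This gave 5 probes, 2 for KLRD1, 2 for KLRB1 and 1 for KLRG1, of 20417 probes matched to 12530 genes and 58659 probes in all. Where a gene had 2 probes, the brighter (probe 1) stood for it, and all 3 genes and 5 probes passed the filter on dim signal.

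Killer cell lectin-like receptors are membrane proteins with a C-type lectin-like domain that tune the activity of NK cells and of some T cells. KLRD1 encodes CD94, which has no signalling motif of its own and pairs with NKG2 proteins to bind the non-classical MHC class I molecule HLA-E or its macaque counterpart. With NKG2A the pair inhibits, and with activating NKG2 partners it signals through the adaptor DAP12 (TYROBP). KLRB1 encodes CD161, which binds LLT1 (CLEC2D) and also marks several T cell populations. KLRG1 binds cadherins and carries an inhibitory tyrosine motif, and its surface form is commonly used as a mark of differentiated NK and T cells. In RefSeq's order of genes on assembly T2T-MFA8v1.1, KLRD1 stood directly next to KLRK1 in the NK gene complex. KLRF2 and KLRF1 lay between KLRD1 and KLRB1, and 8 protein-coding genes lay between KLRB1 and KLRG1.

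The cells were thawed splenocytes, unstimulated, sorted by 10-colour flow cytometry. All NK subsets came from one gate, live CD45+ cells without CD3, CD14, CD20 and HLA-DR that were NKG2A+ and CD8a+. They were divided by surface CD27, a costimulatory receptor, and CD11b, an integrin subunit, into CD27lo CD11blo (4 arrays), CD27+ CD11blo (4 arrays), CD27+ CD11b+ (5 arrays) and CD27lo CD11b+ cells (5 arrays). B cells (2 arrays) were NKG2A-, CD8a-, HLA-DR+ and CD20+. NKG2A reaches the cell surface paired with CD94, so the NK gate itself selected for the KLRD1 protein, and NK cells without NKG2A were not sampled. RNA of each sort (50 ng) was amplified, and 400 ng of amplified material carried the Cy3 dye onto a 1-colour custom Agilent array. The labels do not say which arrays share an animal. Origin, sex, age and replicate number divide the arrays into 6 donor labels, used here as inferred. Donor label 1 (replicate 1 of each NK subset) was a male of 4 years and donor label 2 (replicate 2) a male of unrecorded age. Donor label 3 (replicate 3) was a male whose age is given as 9, 10, 11 or 12 years in the CD27lo CD11blo, CD27+ CD11blo, CD27lo CD11b+ and CD27+ CD11b+ subsets. Donor label 4 was a female of 18 years, present in all 4 NK subsets and in B cell replicate 2. Donor label 5, a male of 5 years, gave replicate 4 of both CD11b+ subsets, and donor label 6, a female of 5 years, gave B cell replicate 1. Where arrays share an animal, p-values that treat them as independent are affected, and they measure only the spread between these arrays.

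The 75th percentile of array signal ran from 180 to 1897 intensity units (median 1280). CD27+ CD11b+ replicate 4 (180) and CD27lo CD11blo replicate 4 (199.6) were the dimmest, and the next array had 578.2. Replicates 1 and 2 of the NK subsets stood on slide 1. Replicate 3 of the NK subsets, the fourth CD11blo replicates and the B cells stood on slide 2, and replicates 4 and 5 of the CD11b+ subsets on slide 3. Of 12 NK markers 9 were measured. Their mean level lay between -0.30 and 2.29 on NK arrays and was -3.01 and -2.35 on the B cell arrays. Of 10 B cell markers 8 were measured, with means from -4.21 to -1.40 on NK arrays and 1.71 and 1.73 in B cells. Messenger RNA of the sort marker CD27 averaged 4.32 ± 0.56 (SD, n = 4) in CD27+ CD11blo and 3.85 ± 0.24 (n = 5) in CD27+ CD11b+ cells. The CD27lo subsets averaged 3.27 ± 1.13 (n = 4, CD11blo) and 3.17 ± 0.45 (n = 5, CD11b+), so the means followed the sort. Single arrays overlapped, up to 4.88 in CD27lo CD11blo and 4.87 in CD27+ CD11blo cells. No gene passed the test between CD27+ and CD27lo cells given below. CD11b and the NKG2 genes were not analysed here, for want of a matched probe.

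All levels below are log2 of the processed signal minus the array's own 75th percentile, so 0 is the level of that percentile. Levels of different probes depend on the probe and are not set against each other. Differences are log2 differences from limma, with standard errors (SE) and 95% confidence intervals, and p-values were adjusted by the Benjamini-Hochberg method over all genes tested.

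KLRD1 was far higher in every NK subset than in B cells. Its levels in replicate order were 1.37, 2.10, 2.32 and 3.59 in CD27lo CD11blo cells. They were 3.40, 2.73, 2.92 and 4.22 in CD27+ CD11blo cells, and 2.93, 2.83, 2.46, 4.67 and 3.89 in CD27+ CD11b+ cells. In CD27lo CD11b+ cells they were 1.69, 2.25, 2.99, 3.45 and 3.12, against -3.97 and -3.52 in B cells. Both B cell arrays lay below all 18 NK arrays, with a gap of several log2 units, while the 4 NK subsets overlapped. The mean of the NK subsets exceeded B cells by 6.67 ± 0.57 (SE; interval 5.49 to 7.86), a 102.1-fold difference (limma adjusted p = 7.69e-07). In this comparison 362 of 12372 genes (2.93%) passed an adjusted p of 0.05, and KLRD1 ranked 4 by p. The NK gate required NKG2A, which pairs with CD94, and the B cell gate excluded it, so the sort itself favoured this difference. In bulk RNA of a sort, fewer cells of a type and less RNA per cell cannot be told apart.

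KLRB1 followed the same division. Its levels were 3.78, 1.79, 4.52 and 2.92 in CD27lo CD11blo cells and 5.20, 4.13, 4.76 and 2.56 in CD27+ CD11blo cells. They were 3.70, 4.14, 3.72, 4.03 and 4.56 in CD27+ CD11b+ cells and 2.40, 2.02, 4.22, 4.15 and 4.10 in CD27lo CD11b+ cells. The B cell arrays gave -2.04 and -2.67. The B cell arrays were again below every NK array, and single CD11blo and CD27lo CD11b+ arrays reached well below the narrow range of the CD27+ CD11b+ subset. The difference from B cells was 6.06 ± 0.66 (interval 4.68 to 7.45), or 66.7-fold (adjusted p = 1.78e-05). Both KLRB1 and KLRD1 stayed past the threshold on slide 2 alone, the only slide with B cells, at 6.19 ± 0.74 (adjusted p = 0.0350) and 6.74 ± 0.54 (adjusted p = 0.0148).

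KLRG1 varied most between arrays and was the only one of the 3 genes that was not well above background on every array. Its levels were -1.29, -3.00, -2.83 and -4.03 in CD27lo CD11blo cells and 0.41, -2.02, -1.16 and -2.59 in CD27+ CD11blo cells. They were 0.25, -1.58, -4.17, -3.04 and -5.76 in CD27+ CD11b+ cells and -1.97, -1.69, -3.57, 0.62 and -4.08 in CD27lo CD11b+ cells. The B cell arrays gave -6.11 and -3.43. Each NK subset overlapped the others, and 13 of 18 NK arrays exceeded both B cell arrays. The probe was well above background on 17 of 20 arrays, all but CD27lo CD11blo replicate 4, CD27+ CD11b+ replicate 5 and B cell replicate 1, whereas the other 4 probes were so on all 20. The difference between NK and B cells was 2.49 ± 1.21 (interval -0.04 to 5.03) and did not pass the threshold (adjusted p = 0.226). It rested on which B cell array was read, at 1.15 without B cell replicate 1 and 3.83 without replicate 2 (adjusted p = 0.755 and 0.510). On slide 2 alone it was 1.51 ± 0.88 (adjusted p = 0.232). Donor label 4 gave cells of all 5 groups. In it the B cell level of -3.43 lay above 3 of the 4 NK levels, and with donor label as a block the difference turned to -0.69 (adjusted p = 0.810). With array weights it was 2.48 and passed (adjusted p = 0.00999), in a fit that called 5707 of 12372 genes.

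**Figure D1:**
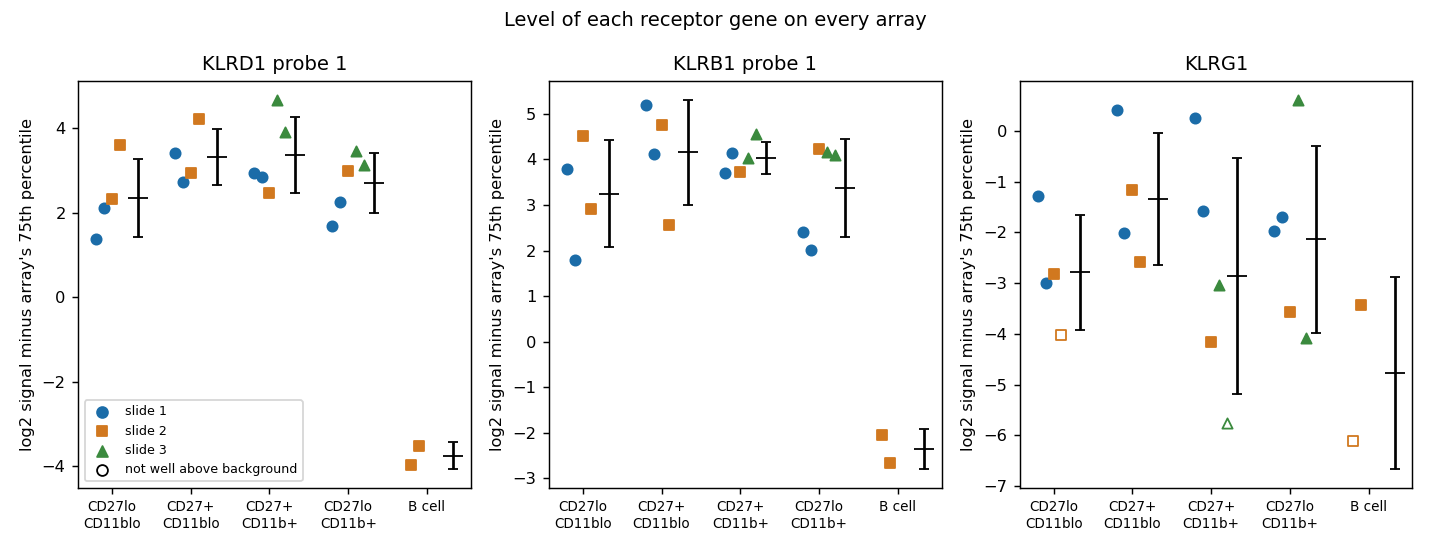
Levels of KLRD1, KLRB1 and KLRG1 (y axis, log2 signal minus the array's 75th percentile) on each of 20 arrays in 5 groups (x axis), with colour and shape for slide, open symbols for arrays not well above background, and group mean ± SD in black. All 18 NK arrays stand above both B cell arrays for KLRD1 and KLRB1, whereas for KLRG1 13 of 18 do.

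Taken 1 subset at a time, KLRD1 and KLRB1 each exceeded B cells in all 4 NK subsets. KLRD1 differed by 7.10 ± 0.64 in CD27+ CD11b+ cells, 7.06 ± 0.66 in CD27+ CD11blo cells, 6.44 ± 0.64 in CD27lo CD11b+ cells and 6.09 ± 0.66 in CD27lo CD11blo cells. KLRB1 differed by 6.52 ± 0.77 in CD27+ CD11blo cells, 6.38 ± 0.74 in CD27+ CD11b+ cells, 5.73 ± 0.74 in CD27lo CD11b+ cells and 5.61 ± 0.77 in CD27lo CD11blo cells. The 8 limma adjusted p-values ranged from 1.90e-06 to 0.000658. Of all genes, 9.09% passed in CD27lo CD11blo cells, 1.29% in CD27+ CD11blo, 1.57% in CD27+ CD11b+ and 1.99% in CD27lo CD11b+ cells. On slide 2 alone, where the CD11b+ subsets have 1 array each and are assumed to vary like the other groups, 3 of these 8 differences passed, while all 8 remained between 6.01 and 7.31. KLRG1 differed by 3.43 ± 1.41 in CD27+ CD11blo cells (limma adjusted p = 0.363), where 4 of 4 arrays lay above both B cell arrays. That difference was 2.09 without B cell replicate 1 and 4.78 without replicate 2, and with array weights it was 3.25 and passed (adjusted p = 0.0294). In the other subsets it differed by 1.91 to 2.63 and also did not pass.

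Markers of other cells that can carry these receptors were read on the same arrays. The 7 measured T cell markers of 12 had a mean level of -1.62 to -0.13 on NK arrays and -3.42 and -2.77 in B cells. TRAT1, which encodes a T cell receptor-associated adaptor, was at least 93.5-fold higher in NK cells (limma adjusted p = 4.32e-06), a bound against the lowest signal well above background, since neither B cell array held it well above background. It was the only one of the 7 to pass the threshold. CD3D was well above background on all 20 arrays. The 8 measured of 10 markers of CD161-bearing T cells and innate lymphoid cells averaged -4.08 to -1.44 on NK arrays and -3.65 and -3.43 in B cells, and none passed. Among them IL23R was well above background on 5 arrays and IL17A on 7. The part of such cells in the receptor levels was not tested.

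Against B cells the probe pairs agreed for KLRD1 and differed for KLRB1. Between CD11b+ and CD11blo NK cells the KLRD1 probes had opposite signs, at 0.20 ± 0.37 (probe 1) and -0.23 ± 0.40 (probe 2), neither past the threshold. The lowest subset mean was 2.34 in CD27lo CD11blo cells by KLRD1 probe 1 and 2.08 in CD27lo CD11b+ cells by probe 2. KLRD1 probe 2 gave levels of 1.33, 2.24, 2.38 and 3.27 in CD27lo CD11blo cells, 3.30, 2.42, 2.66 and 4.03 in CD27+ CD11blo cells, and -4.39 and -3.53 in B cells. Its levels were 2.94, 2.83, 2.94, 3.35 and 2.27 in CD27+ CD11b+ cells and 0.68, 0.58, 3.27, 2.81 and 3.07 in CD27lo CD11b+ cells. In the fit of every probe, where 1821 of 57764 (3.15%) passed, it exceeded B cells by 6.55 ± 0.62 (adjusted p = 3.02e-06), close to probe 1. KLRB1 probe 2 ranged from 0.20 to 2.82 on NK arrays, all above its B cell levels of -1.57 and -2.04. Its difference was 2.96 ± 0.57 (interval 1.76 to 4.16, adjusted p = 0.00566), or 7.77-fold, against 66.7-fold by probe 1, whose interval of 4.68 to 7.44 in the same fit does not overlap it. Without B cell replicate 1 or 2 the call of KLRB1 probe 2 was lost, at differences of 3.19 and 2.72 (adjusted p = 0.109 and 0.234). It was also lost with donor label as a block, at 3.07 (adjusted p = 0.0812). The probes of a gene carry different RefSeq transcript accessions. Over the 18 NK arrays, which share slides and donor labels, probes 1 and 2 correlated with r = 0.74 for KLRD1 and 0.43 for KLRB1, given as a description.

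**Figure D2:**
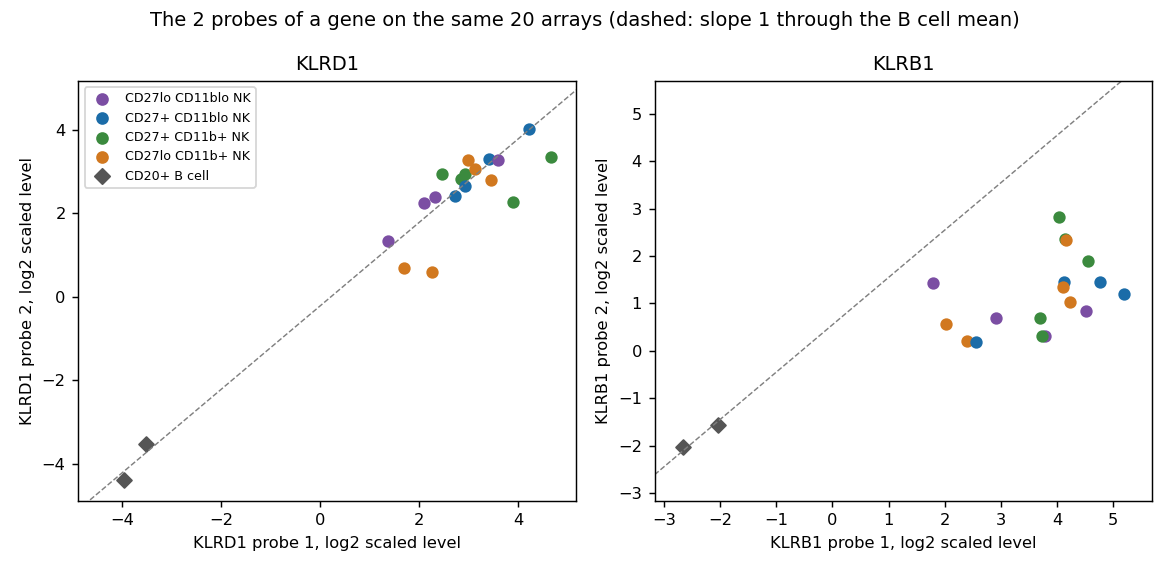
Probe 1 (x axis) against probe 2 (y axis), both as log2 scaled level, for KLRD1 and KLRB1 on the same 20 arrays, coloured by group. The dashed line has slope 1 and passes through the mean of the 2 B cell arrays, so NK arrays near it show the same difference from B cells by both probes (KLRD1), and those under it show a smaller difference by probe 2 (KLRB1).

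Within NK cells the order of mean levels differed between the genes. KLRD1 averaged 3.36 ± 0.90 (SD, n = 5) in CD27+ CD11b+, 3.32 ± 0.66 (n = 4) in CD27+ CD11blo, 2.70 ± 0.72 (n = 5) in CD27lo CD11b+ and 2.34 ± 0.92 (n = 4) in CD27lo CD11blo cells. KLRB1 averaged 4.16 ± 1.15 (n = 4) in CD27+ CD11blo, 4.03 ± 0.35 (n = 5) in CD27+ CD11b+, 3.38 ± 1.08 (n = 5) in CD27lo CD11b+ and 3.25 ± 1.17 (n = 4) in CD27lo CD11blo cells. KLRG1 averaged -1.34 ± 1.31 (n = 4) in CD27+ CD11blo, -2.14 ± 1.85 (n = 5) in CD27lo CD11b+, -2.79 ± 1.13 (n = 4) in CD27lo CD11blo and -2.86 ± 2.32 (n = 5) in CD27+ CD11b+ cells. Both CD27+ subsets thus had the higher means of KLRD1 and KLRB1, and no neighbours in any of these orders differed beyond the spread of their arrays. A test of any difference among the 4 subsets gave a limma adjusted p of 0.587 for KLRD1, 0.656 for KLRB1 and 0.718 for KLRG1. In that test 0 of 12176 genes (0%) passed and 1069 had an unadjusted p under 0.05.

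No receptor gene passed the test between CD11b+ and CD11blo cells. The mean of the CD11b+ subsets minus that of the CD11blo subsets was 0.20 ± 0.37 for KLRD1 (interval -0.57 to 0.97), -0.00 ± 0.43 for KLRB1 (-0.91 to 0.90) and -0.44 ± 0.76 for KLRG1 (-2.04 to 1.17). The limma adjusted p-values were 0.967 to 0.999, and 2 of 12176 genes did (0.0164%). The interval for KLRG1 was the widest of the 3. All 3 differences changed sign under at least 1 other setting, KLRD1 to -0.20 with slide as a block.

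CD27+ subsets had the higher KLRD1 level, by 0.82 ± 0.37 (interval 0.04 to 1.59), an interval that leaves out 0, but it did not pass after adjustment over all genes (limma adjusted p = 0.217). Here 0 of 12176 genes (0%) passed, 2706 had an unadjusted p under 0.05, and the median over all genes was -0.37. KLRB1 was higher by 0.78 ± 0.43 (interval -0.12 to 1.68, adjusted p = 0.260) and KLRG1 by 0.36 ± 0.76 (interval -1.24 to 1.97, adjusted p = 0.751). In the fit of every probe, probe 2 gave 0.79 ± 0.40 for KLRD1 and 0.38 ± 0.37 for KLRB1, neither past the threshold. The slides gave different values in this comparison, and no test between slides was made. On slide 1 the difference was 1.12 ± 0.31 for KLRD1 and 1.79 ± 0.46 for KLRB1 (limma adjusted p = 0.04999 and 0.0490), with 1457 of 11877 genes called. On slide 2, where the CD11b+ subsets had 1 array each, it was 0.10 ± 0.57 for KLRD1 and -0.28 ± 0.85 for KLRB1. The KLRD1 value there is by probe 2, the brighter on those NK arrays. By probe 1, KLRD1 differences within donor labels on slide 2 were 0.61 and 0.63 between the CD11blo subsets and -0.53 between the CD11b+ subsets. Slide 3 held 4 arrays of the CD11b+ subsets, and no fit was made within it. Its KLRD1 differences within donor labels 4 and 5 were 0.77 and 1.23 by probe 1. By probe 2 donor label 4 went the other way, at 2.27 in CD27+ CD11b+ and 3.07 in CD27lo CD11b+ cells, and donor label 5 did not. On slide 1 every CD27+ array (1314 to 1897 intensity units) was brighter than every CD27lo array (622.4 to 1061), so on that slide array signal and CD27 status cannot be told apart. On slide 2 the ranges overlapped, 817.9 to 1439 against 199.6 to 1396.

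**Figure D3:**
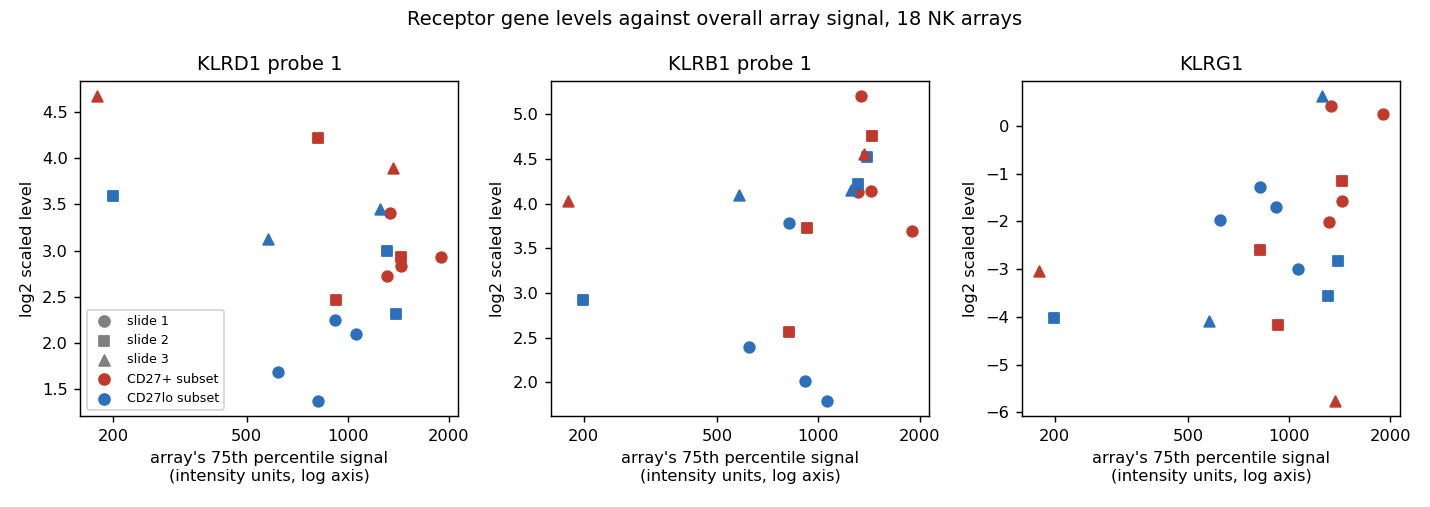
Level of KLRD1, KLRB1 and KLRG1 (y axis, log2 scaled) against the 75th percentile signal of the array (x axis, log scale) for 18 NK arrays, with shape for slide and colour for CD27 status. On slide 1 (circles) the CD27+ arrays lie between 1314 and 1897 units and the CD27lo arrays between 622.4 and 1061, and the correlation of signal with KLRD1 is 0.83 there against -0.34 over all arrays.

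Array signal moved with the genes to different degrees. Over the 18 NK arrays its correlation (Pearson r, a description, since arrays share slides and donor labels) was -0.34 with KLRD1, 0.30 with KLRB1 and 0.37 with KLRG1. Without the 2 arrays of most extreme signal these were 0.29, 0.49 and 0.31. The sign for KLRD1 therefore rests on those arrays, where its level was 4.67 and 3.59. Within slide 1 (8 arrays) r was 0.83, 0.54 and 0.52, and within slide 2 (6 arrays) -0.50, 0.71 and 0.52. Its part in the subset differences was not tested.

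The same levels, by probe 1 where a gene had 2 probes, were set side by side within donor labels. No test was made because the pairing is inferred. For KLRD1, CD27+ CD11blo minus CD27lo CD11blo was 2.03, 0.63, 0.61 and 0.63 in donor labels 1 to 4, positive in 4 of 4. CD27+ CD11b+ minus CD27lo CD11b+ was 1.24, 0.58, -0.53, 0.77 and 1.23 in donor labels 1 to 5, positive in 4 of 5 by probe 1. By probe 2 the sign reversed in donor label 4, at 2.27 in CD27+ CD11b+ and 3.07 in CD27lo CD11b+ cells. It was unchanged in the other donor labels. For KLRB1 the same pairs by probe 1 gave 1.42, 2.34, 0.24 and -0.36, and then 1.30, 2.12, -0.50, 0.46 and -0.12. The KLRB1 differences were largest in donor labels 1 and 2, whose arrays make up slide 1, and lay between -0.50 and 0.46 in the others. KLRG1 was higher in CD27+ CD11blo than in CD27lo CD11blo cells in all 4 donor labels, by 1.70, 0.98, 1.67 and 1.44. Between the CD11b+ subsets the KLRG1 difference was 2.22, 0.11, -0.60, -1.69 and -3.66, so its sign was mixed. Over arrays, the interaction of CD27 with CD11b for KLRG1 was -2.17 ± 1.53 (interval -5.38 to 1.04, limma adjusted p = 0.9997), with 0% of genes called and 175 at an unadjusted p under 0.05. It was -0.32 ± 0.74 for KLRD1 and -0.26 ± 0.86 for KLRB1, neither past the threshold. By probe 2 these were -0.02 ± 0.80 and 0.26 ± 0.75, also not past it.

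**Figure D4:**
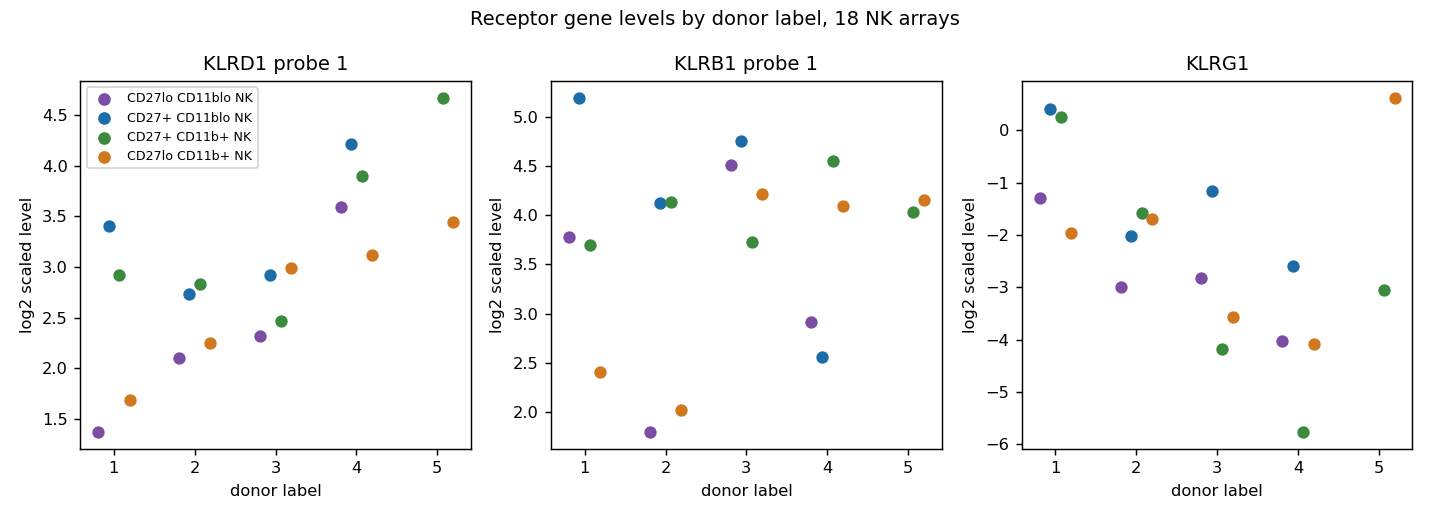
Level of KLRD1, KLRB1 and KLRG1 (y axis, log2 scaled) on 18 NK arrays by inferred donor label (x axis, 1 to 5), coloured by subset. For KLRD1 the CD27+ CD11blo array lies above the CD27lo CD11blo array in 4 of 4 donor labels, and mean KLRG1 ranges from -0.65 in donor label 1 to -4.12 in donor label 4.

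Levels also varied between donor labels, which overlap with slides. Mean KLRD1 was 2.35, 2.48, 2.67 and 3.70 in donor labels 1 to 4 (4 arrays each) and 4.06 in donor label 5 (2 arrays). Mean KLRG1 was -0.65, -2.07, -2.93 and -4.12 in donor labels 1 to 4 and -1.21 in donor label 5, whose arrays lay far apart at 0.62 and -3.04. Mean KLRB1 lay between 3.02 and 4.30 in the 5 donor labels. By slide, KLRD1 averaged 2.41 ± 0.68 (SD, n = 8), 3.08 ± 0.71 (n = 6) and 3.78 ± 0.67 (n = 4) on slides 1, 2 and 3, and KLRG1 -1.36 ± 1.16, -3.06 ± 1.12 and -3.07 ± 2.70. KLRB1 averaged 3.39 ± 1.20, 3.78 ± 0.89 and 4.21 ± 0.24. Donor label and slide overlap only in part. Donor labels 1 and 2 both lie on slide 1, where their mean KLRG1 levels were -0.65 and -2.07 and their mean KLRD1 levels 2.35 and 2.48, and the NK arrays of donor label 4 lie on slides 2 and 3. Sex follows donor label, and so does age except in donor label 3, whose arrays carry different ages, so these cannot be told apart. Donor label 4 was the only female among the 5 donor labels with NK arrays. After removal of subset means, the SD of KLRG1 was 1.78, larger than that of 92.9% of genes (median 0.90), while KLRD1 (0.81) and KLRB1 (0.97) lay near the median.

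None of the 6 pairs of subsets passed the test for any receptor gene. The largest differences were for KLRG1 between CD27+ CD11b+ and CD27+ CD11blo cells (-1.52 ± 1.08, interval -3.79 to 0.75) and between CD27lo CD11blo and CD27+ CD11blo cells (-1.45 ± 1.14, interval -3.84 to 0.95). For KLRD1 they were between CD27+ CD11b+ and CD27lo CD11blo cells (1.01 ± 0.52, interval -0.08 to 2.11, limma adjusted p = 0.258) and between CD27lo CD11blo and CD27+ CD11blo cells (-0.97 ± 0.55, interval -2.13 to 0.18). For KLRB1 the same 2 pairs gave 0.78 ± 0.61 (interval -0.50 to 2.05) and -0.91 ± 0.64 (interval -2.25 to 0.43). Between the single-positive subsets, CD27lo CD11b+ minus CD27+ CD11blo was -0.62 ± 0.52 for KLRD1, -0.78 ± 0.61 for KLRB1 and -0.80 ± 1.08 for KLRG1. By probe 2 it was -1.02 ± 0.57 for KLRD1 and 0.02 ± 0.53 for KLRB1, neither past the threshold. In each of the 6 pairs 0% of genes passed, with 297 to 2561 of 12176 at an unadjusted p under 0.05.

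**Figure D5:**
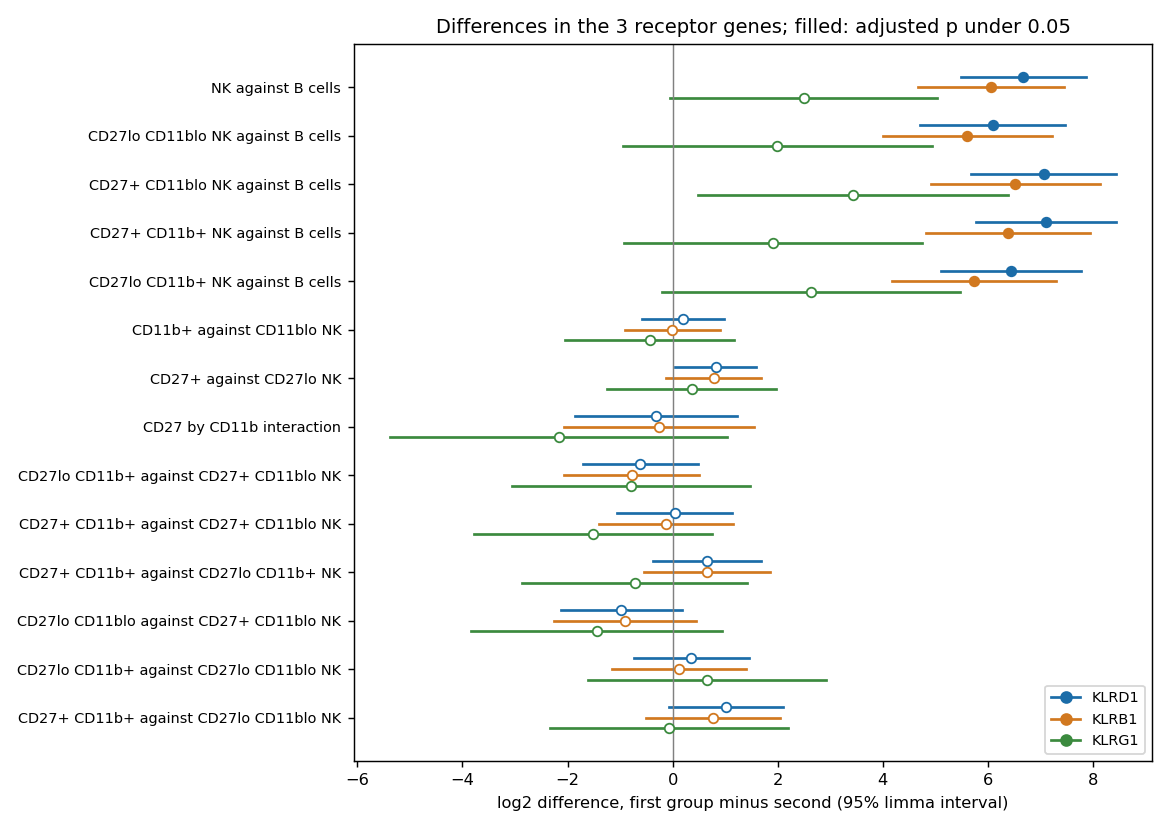
Log2 difference (x axis, first group minus second, with 95% limma interval) of KLRD1, KLRB1 and KLRG1 in 14 comparisons (y axis), with filled circles where the adjusted p is under 0.05. Filled circles occur only for KLRD1 and KLRB1 against B cells, where differences run from 5.61 to 7.10, and the intervals for KLRG1 are the widest throughout.

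The 3 genes were weakly correlated across NK arrays. Pearson r over the 18 arrays, as a description, was 0.29 between KLRD1 and KLRB1, -0.18 between KLRD1 and KLRG1 and 0.13 between KLRB1 and KLRG1. KLRD1 and KLRB1 correlated with r = 0.62 within slide 1 and -0.80 within slide 2. Among 7654 genes well above background on all 18 arrays, those most like KLRD1 were LOC102130617 (r = 0.94), GMFG, which encodes an actin regulator (0.93), the ribosomal protein genes RPS15A (0.93) and RPS10 (0.93), and LOC102146837 (0.92). PAQR7 (-0.88) and LOC102145962 (-0.86) were the most opposite. KLRB1 had less close companions, ABTB3 (0.72), RRAD (0.72), RASSF5 (0.72), SKAP1, a T cell adaptor gene (0.72), and PTP4A1 (0.69). STING1, the sensor adaptor of cyclic dinucleotides, was the most opposite to KLRB1 (-0.79), followed by LOC102116916 (-0.76). KLRG1 was most like PAQR6 (0.77), the lysozyme gene LYZ (0.77), the adaptor gene GRAP (0.76), ACP2 (0.75) and MMAB (0.73), and most opposite to LOC102141130 (-0.82) and DDX59 (-0.81). LYZ is also a monocyte marker. The 7 measured of 8 monocyte markers averaged -2.57 to -0.48 on NK arrays and -1.53 and -1.09 in B cells, and their part in the KLRG1 level was not tested.

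The wider receptor pathway was described through lists of related genes, of which 43 of 74 were measured. Of the receptor family to which the 3 genes belong (21 genes, 9 measured), none passed between NK and B cells (0 against 2.93% of all genes). Their median difference was 0.85, against 0.36 over all genes tested. CLEC2B, a neighbour in the NK gene complex, differed by 1.40 ± 0.54 (limma adjusted p = 0.143) and the related receptor KLRG2 did not pass either (adjusted p = 0.152). The early activation receptor CD69 gave -0.42 ± 0.63. KLRC1 and the other NKG2 genes, KLRK1, KLRF1 and CLEC2D were not analysed here. Of the ligands only the cadherin genes were measured. CDH1, which encodes E-cadherin, a KLRG1 ligand, gave 0.64 ± 0.43, and none of the 3 cadherins passed.

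Among signalling chains and kinases, 4 of 9 measured, from a list of 12, were higher in NK than in B cells and none lower, where 2.93% of all genes passed. Their median difference was 1.99, against 0.36 over all genes. TYROBP, the DAP12 adaptor of activating CD94 pairs, was higher by 3.74 ± 0.46 (limma adjusted p = 4.46e-05). CD247, the zeta chain of the T cell receptor and CD16, was higher by 5.9998 ± 0.91, FCER1G, the Fc receptor gamma chain, by 3.68 ± 0.62, and the kinase gene ZAP70 by 1.99 ± 0.35. Of 5 measured effectors of inhibitory receptors, from a list of 7, none passed, and their median was -0.89. PTPN6, which encodes the phosphatase SHP-1, gave -2.27 ± 0.79 (adjusted p = 0.112) and PTPN11 (SHP-2) gave -0.89 ± 0.99. SMPD1, the acid sphingomyelinase linked to CD161, gave 0.02 ± 0.43. Of 4 measured other inhibitory receptors, from a list of 12, none passed either, with SIGLEC9 at 1.42 ± 0.42 (adjusted p = 0.0695) and HAVCR2, which encodes TIM-3, at 1.32 ± 0.44.

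Among 13 measured of 17 transcriptional regulators of NK and receptor genes, 3 were higher in NK cells and 1 lower, where 213 of 12372 genes were higher and 149 lower (2.93% in all). Their median difference was 1.46, against 0.36 over all genes. EOMES, a T-box factor, was higher by 7.31 ± 0.84, GATA3 by 5.11 ± 0.65 and ID2, an inhibitor of E proteins, by 4.58 ± 0.56. EOMES and GATA3 were each well above background on 1 of the 2 B cell arrays. BACH2, a repressor of effector programmes, was lower in NK cells (-5.81 ± 0.77) and well above background on 4 of 18 NK arrays. Between NK subsets none of the 42 related genes tested there passed in the CD11b, CD27 or any-difference comparisons. By CD11b, RUNX3 gave 1.09 ± 0.33 (limma adjusted p = 0.916) and FCER1G 1.18 ± 0.39 (adjusted p = 0.946). By CD27, all 9 signalling genes had positive differences (median 0.68, against -0.37 over all genes), and SYK gave 1.65 ± 0.66 (adjusted p = 0.206). The cadherin genes had negative ones, the sign of the median over all genes, with CDH2 at -1.07 ± 0.36 (adjusted p = 0.198).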

How the data were processed

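Gene expression was measured on 20 one-colour Agilent arrays. Agilent Feature Extraction (version 10.7.1.1) and Partek are named in the submitters' processing notes, and Partek's version is not given in the sources used here. The processed signal is, by what the authors deposited in the file headers, an intensity that was already background-subtracted and detrended. Other deposited columns are flags that mark outlier, saturated and background-level spots. The authors also deposited a matrix of log2 values whose columns all have the same quantiles. Its normalization is not stated, and it served as an alternative only.

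Of 58839 spots that were not controls, 233 outlier values over all arrays were dropped, and repeated spots were averaged (58659 probes, 34.8% matched to a gene). Each array's 75th percentile was subtracted from its log2 signal. Fits used lmFit and eBayes (trend = TRUE, robust = TRUE) of limma 3.58.1 under R 4.3.3 with no block, and a Benjamini-Hochberg threshold of 0.05. A probe had to be well above background on 4 or more of 18 NK arrays, or on 2 or more of 20 with B cells. Each gene took its brightest probe on average (12176 and 12372 genes). NK against B cells is the mean of the 4 subset means minus B cells. All 18 NK arrays shared 1 estimate of spread. No probe of the 3 genes was saturated. Precision is limited by how few arrays there are. Code was tested on simulated data.

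The members and lists were chosen with earlier results of these data known. Named were all probes of the 3 genes, the 5 genes most like and 2 most opposite to each over NK arrays, up to 4 genes per list by p, direct partners or ligands, and CD27. BACH2, TRAT1, CD3D, IL23R, IL17A and SMPD1 were named after their values were seen. Alternatives were quantile normalization, normexp background (offset 50, on the median spot signal), the authors' matrix, other filters, the mean over probes, blocks, array weights, single slides and arrays left out.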

Additional observations from a re-analysis of the deposited data

How the results depend on the processing

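KLRD1 and KLRB1 stayed higher in NK than in B cells, past the threshold, under all 34 alternatives each. KLRB1 ran from 5.75 to 6.37 with single arrays left out and from 4.51 to 6.20 under the other alternatives. By KLRB1 probe 2 the difference was smaller, at 2.96, and its call did not hold under every setting. On slide 2 alone 3 of 8 differences of single subsets passed. KLRG1 against B cells ran from 1.15 to 3.83 with single arrays left out, and passed at 2.48 with array weights. With donor label as a block KLRG1 against B cells turned to -0.69, and by subset to -1.03 (CD27lo CD11blo), -1.43 (CD27+ CD11b+) and -0.70 (CD27lo CD11b+). That block leaves B cell replicate 1, the only array of its donor label, without weight.

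For CD27, array weights called KLRD1 at 0.77 (1 of 3 genes, in a fit calling 4110 of 12176 genes). Slide 1 called KLRD1 at 1.12 and KLRB1 at 1.79 (2 of 3 genes, in a fit calling 1457 of 11877 genes). KLRB1 on slide 2 was -0.28. No replicate left out gave a call, and KLRG1 ran from -0.028 to 0.72.

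For CD11b, KLRD1 turned to -0.016 with the mean over probes, -0.20 with slide and -0.059 with donor label as a block. KLRB1 turned to 0.20 with the mean over probes, 0.21 with array weights and 0.28 on slide 2, and ran from -0.27 to 0.21 with single arrays left out. KLRG1 turned to 0.17 with the replicate block and 0.23 on slide 1.

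Pairs of NK subsets gave no call, and these uncalled values changed sign. For CD27+ CD11b+ against CD27+ CD11blo cells, KLRD1 was -0.064 with quantile normalization, -0.053 with normexp, -0.065 with the authors' matrix, -0.099 with the mean over probes and -0.36 with slide, -0.080 with replicate and -0.22 with donor label as a block. It was -0.047 with array weights and -0.29 without the 2 dimmest arrays. KLRB1 was 0.20 with the mean over probes there. For CD27+ CD11b+ against CD27lo CD11b+ cells, KLRG1 was 0.20 with array weights. For CD27lo CD11b+ against CD27lo CD11blo cells, KLRD1 was -0.041 and KLRB1 -0.15 with the slide block, and KLRB1 -0.030 with the replicate block. For CD27+ CD11b+ against CD27lo CD11blo cells, KLRG1 was 0.49 with quantile normalization, 0.38 with normexp, 0.50 with the matrix, 0.010 with slide and 0.53 with replicate as a block, and 0.31 with array weights. With single arrays left out, these pairs in the same order ran from -0.29 to 0.34 (KLRD1) and -0.67 to 0.21 (KLRB1), -1.501 to 0.0034 (KLRG1), -0.36 to 0.55 (KLRB1) and -0.042 to 1.15 (KLRG1), and -0.85 to 0.65 (KLRG1). The interaction ran from -0.73 to 0.0082 for KLRD1 and -0.79 to 0.23 for KLRB1.

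Of the related genes 8 passed between NK and B cells, 5 with donor label as a block and 5 to 9 with single arrays left out. With array weights 27 passed, in a fit that called 5707 of 12372 genes. Over all genes the 362 calls (213 higher, 149 lower) became 56 and 63 without B cell replicate 1 or 2, 715 without CD27lo CD11b+ replicate 4, 598 with slide and 84 with donor label as a block, and 2019 on slide 2. They split 88 to 163 with quantile normalization, 57 to 238 with normexp and 88 to 166 with the matrix. Quantile normalization moved the median of all genes from 0.36 to 0.17 for NK against B cells and from -0.37 to -0.13 for CD27. Same-numbered arrays deviated together in part (25 pairs, median r 0.22, 17 over 0.1), more than arrays of other numbers (96 pairs, median r -0.07, 22 over 0.1). Not every same-numbered pair exceeded 0.1 and the labels state no shared animal, so the numbers were not taken as pairs. The replicate block changed no call of the 3 genes. It joins arrays of different donor labels, such as 4 and 5 in replicate 4, and the B cell arrays with NK replicates 1 and 2. It therefore cannot account for shared animals. The cause of the changes between settings was not tested.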
